A study of Mus musculus with 9 samples.

Results

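RNA that co-precipitated with phosphorylated UPF1 (p-UPF1) was compared with the RNA of the lysate from which it was taken (input) in activated mouse splenic B cells. The comparison used 3 p-UPF1 libraries and 3 input libraries of the 9 libraries in the series, chosen by their labels. The other 3 libraries held RNA precipitated with normal rabbit IgG. All 9 came from wild-type splenic B cells obtained by removing CD43+ cells and activated for 72 h with CD40L at 5 ug/mL, anti-IgM at 10 ug/mL and IL-4 at 20 ng/mL, as the labels give it (the study's methods name an anti-CD40 antibody where the labels name the ligand). The input was a small aliquot of the same kind of lysate that was set aside before precipitation. Of the 27179 gene identifiers counted, 13129 had enough counts to be tested. No strain, age or sex of the mice was used here, and nothing in the labels says whether libraries of a group came from separate cultures or mice, so P values measure the spread between these libraries, which may be technical. The study's methods call the data points in its graphs independent biological replicates, without naming these libraries.

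UPF1 is an ATP-dependent RNA helicase and the central factor of nonsense-mediated mRNA decay (NMD), the pathway that degrades mRNAs on which translation ends in an unfavourable place. The kinase SMG1 phosphorylates UPF1 on such mRNAs, and factors such as SMG5 and SMG6 bind the phosphorylated form and lead to cleavage or decay of the mRNA. Features known to favour NMD are an exon junction far downstream of the stop codon, open reading frames upstream of the main one, and a long 3′ UTR. Input shows how abundant an RNA was in the cells, so the fold change of p-UPF1 over input measures how an RNA was recovered relative to its own abundance.

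The libraries were deep and the replicates close. The input libraries held 19873687 to 24945286 counts and the p-UPF1 libraries 23251890 to 24802119 counts. Pearson's r of log2 CPM (counts scaled to a common library size) was 0.996 to 0.997 among input libraries and 0.996 among p-UPF1 libraries, against 0.870 to 0.874 between the groups (across genes, which are not independent replicates). Replicates differed by more than counting noise, with a chi-square per degree of freedom of 1.37 to 1.72 for pairs of input libraries and 2.84 to 4.06 for pairs of p-UPF1 libraries. Of 8 B cell markers all 8 were tested, with a summed level of 3454 to 3509 CPM (on raw totals) in input and 2439 to 2534 CPM in p-UPF1. Of 5 neutrophil markers 0 passed the count filter, and their summed level was at most 0.148 CPM in any input library. The 8 T cell markers summed to 99.1 to 103 CPM in input and 65.3 to 73.4 CPM in p-UPF1, nearly all of it Lck, with Cd28 at 1.60 to 2.16 CPM in input and Cd3e, Cd3d and Cd3g each at or below 0.361 CPM in input. The 6 macrophage markers summed to 139 to 152 CPM in input and 57.2 to 59.2 CPM in p-UPF1, most of it Adgre1, with Cd68 at 13.9 to 14.5 CPM in input and Csf1r, Cd14 and Marco each at or below 0.151 CPM in input. The 5 dendritic cell markers summed to 40.4 to 41.4 CPM in input and 171 to 173 CPM in p-UPF1, most of it Zbtb46. In input Itgax was at 2.21 to 3.01 CPM, Flt3 at 1.38 to 2.21 CPM, and Xcr1 and Siglech each at or below 0.443 CPM. The part of other cells in the results was not tested. By the study's methods input and precipitates were parts of the same cell lysates, so these sums do not measure a change in cell number.

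Most tested RNAs were recovered with p-UPF1 at a level that differed from input. By edgeR's quasi-likelihood F test, with P values adjusted by the Benjamini-Hochberg method, 10952 of 13129 genes (83.4%) differed at an adjusted P under 0.05. Since most genes passed at that threshold, size was used as well. With an absolute log2 fold change of at least 1, 2955 genes were higher in p-UPF1 (22.5%) and 3211 were lower (24.5%). At the study's input criterion of 2 on the log2 scale, 828 genes were higher (6.31%) and 1270 lower (9.67%), or 543 and 879 with glmTreat, which tests each change against that minimum. The log2 fold changes had a median of -0.03, quartiles of -0.99 and 0.90, and a median SE of 0.08. For 11577 genes (88.2%) the 3 p-UPF1 values all lay above or all below the 3 input values. Every fold change is relative to the typical RNA of the same library, because the counts hold no spike-in and a change in total recovered RNA cannot be read from them. IgG over input had a narrower spread, with an SD of 0.52 over genes against 1.43 for p-UPF1 over input. The IgG and p-UPF1 contrasts share the same input libraries, and IgG values are given beside the p-UPF1 values for that reason only as levels to set them against. Below, "higher" and "lower" mean an adjusted P under 0.05 together with a change of 1 or more on the log2 scale, and values after ± are SE of the log2 fold change unless stated.

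The RNA most enriched over input at a mean of at least 10 CPM was Cd83 (chr13:43785112-43803133 on mm10), which encodes a surface glycoprotein induced on activated B cells. Cd83 was at 1078, 1067 and 1053 CPM in the input libraries and 15344, 15766 and 14914 CPM in the p-UPF1 libraries. It was abundant in the lysate already, and the groups lay far apart, with a log2 fold change of 3.85 ± 0.04 (adjusted P = 8.1e-20, edgeR) and -0.01 ± 0.03 for IgG over input. Per kilobase of exon Cd83 ranked 113 in input, at 498 CPM per kb, and 1 in p-UPF1, at 7165 CPM per kb.

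The other 9 leading RNAs were scarcer. Gins3 (chr8:95633559-95645059), a subunit of the GINS complex of the replicative helicase, was at 15.4, 17.005 and 14.6 CPM in the input libraries and 209.6, 214 and 213 CPM in the p-UPF1 libraries. Tab1 (chr15:80133127-80161707), which activates the kinase TAK1 in inflammatory signalling, was at 20.6, 19.98 and 19.8 CPM in the input libraries and 252, 260.2 and 261 CPM in the p-UPF1 libraries. Stat2 (chr10:128270498-128292853), the transcription factor of the type I interferon response, was at 58.6, 56.1 and 57.5 CPM in the input libraries and 667, 685 and 677 CPM in the p-UPF1 libraries. For all 3 the groups lay far apart and the libraries of a group close together. The log2 fold changes were 3.76 ± 0.07 for Gins3, 3.68 ± 0.05 for Tab1 and 3.56 ± 0.05 for Stat2, against 0.12 ± 0.08, 0.15 ± 0.06 and 0.32 ± 0.05 for IgG over input. Stat2 overlaps another gene on its own strand. Dnajc28, a member of the DnaJ co-chaperone family, rose from the lowest input level of the 10, 3.33, 3.78 and 3.87 CPM, to 48.4, 49.8 and 49.9 CPM, a log2 fold change of 3.76 ± 0.13. It reached a mean of 10 CPM only through its p-UPF1 values, so its place among the 10 is a description. Pik3ip1, an inhibitor of phosphoinositide 3-kinase, had 3.65 ± 0.07, but it overlaps other annotated genes on both strands, introns included. Exon overlap was not examined, so its count may be uncertain, in particular if strand was not used in counting. Vhl, the substrate receptor of the ubiquitin ligase that degrades hypoxia-inducible factors, had 3.57 ± 0.07, and Cnr2, the cannabinoid receptor of immune cells, had 3.56 ± 0.08. Med22, a Mediator subunit, and Surf6, a nucleolar protein, had 3.62 ± 0.05 and 3.62 ± 0.05, and they lie side by side on chromosome 2 at chr2:26905267-26910642 and chr2:26890418-26902887.

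At the other end, mitochondrial transcripts dominated. Cytochrome b (CYTB) was at 5556, 5662 and 5452 CPM in the input libraries and 109, 90.3 and 86.6 CPM in the p-UPF1 libraries. The subunit ND1 of respiratory complex I was at 3697, 3833 and 3620.0 CPM in the input libraries and 77.01, 70.8 and 65.9 CPM in the p-UPF1 libraries. COX1, the catalytic subunit of cytochrome c oxidase and the most abundant RNA of the input per kilobase, was at 8817, 8905 and 8486 CPM in the input libraries and 276, 313 and 289.8 CPM in the p-UPF1 libraries. All p-UPF1 values lay far below the input values, and the log2 fold changes were -5.87 ± 0.07, -5.70 ± 0.06 and -4.90 ± 0.07, against -1.146 ± 0.06, -1.46 ± 0.05 and -0.75 ± 0.06 for IgG over input. The mitochondrial ribosomal RNAs mt-Rnr1 and mt-Rnr2 had -5.59 ± 0.09 and -5.05 ± 0.09, and ND4 and ND2 had -5.40 ± 0.05 and -5.31 ± 0.07. Nuclear DNA holds partial copies of the mitochondrial genome, and how reads shared with them were counted is not stated.

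The remaining members of the 10 most depleted were 2 nuclear RNAs and 1 unnamed identifier. Bc1 (chr7:144914470-144914623), a short noncoding RNA transcribed by RNA polymerase III and best known from neurons, was at 51.6, 62.97 and 55.9 CPM in the input libraries and 0.969, 0.813 and 0.771 CPM in the p-UPF1 libraries, with the most negative log2 fold change of the 10, -6.05 ± 0.26 (-2.09 ± 0.17 for IgG over input). Bc1 resembles repeat elements spread through the genome, and its count is uncertain for that reason. Sec61g (chr11:16501638-16508484), the smallest subunit of the endoplasmic reticulum translocon, was at 53.6, 55.5 and 51.1 CPM in the input libraries and 2.27, 1.72 and 2.22 CPM in the p-UPF1 libraries, a log2 fold change of -4.68 ± 0.10. The last was an identifier (100503642) with no symbol or position in the annotation used, at -5.32 ± 0.14. Bc1, Sec61g and this identifier were under 10 CPM in p-UPF1 and reached a mean of 10 CPM through input, so their places are a description.

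**Figure D1:**
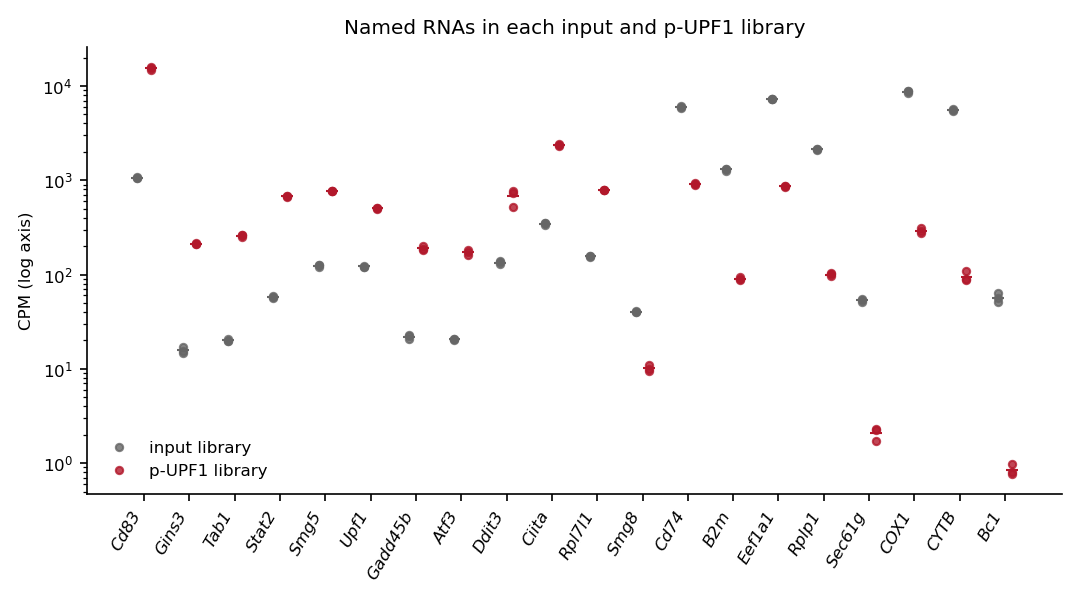
Level of named RNAs in each library, in CPM on a log axis, with 1 point per library (3 input in grey, 3 p-UPF1 in red) and a bar at the mean of each group. In each of the RNAs shown the 3 points of a group lie close together and the groups do not overlap, and Cd83 reaches the highest level of the RNAs shown, 15766 CPM.

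Recovery fell with abundance in the lysate. Genes were ordered by level in input per kilobase of exon, and the genes with an annotated exon length were cut into 10 groups of 1284. The median log2 fold change went from 0.72 in the least abundant group through 0.17 and 0.10 in the middle to -0.66 and -1.46 in the most abundant groups. In the most abundant group (above 57.4 CPM per kb) 792 genes were lower and 85 higher, or 61.7% and 6.62% against 24.5% and 22.5% of all genes tested. In the least abundant group (up to 0.357 CPM per kb) 469 were higher and 83 lower. A gene scarce in input could pass the count filter through its p-UPF1 counts, so the values of the least abundant group are a description. The most abundant group took 49.3% of the CPM of tested genes in input and 31.3% in p-UPF1. IgG over input went the same way over a smaller range, from 0.03 to -0.31. Input enters both axes of this comparison. With abundance taken from 1 input library and the fold change from the 2 others, the most abundant group had -1.45 to -1.47. Without division by exon length its median was -0.65, so the size of the depletion depended on how abundance was expressed.

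**Figure D2:**
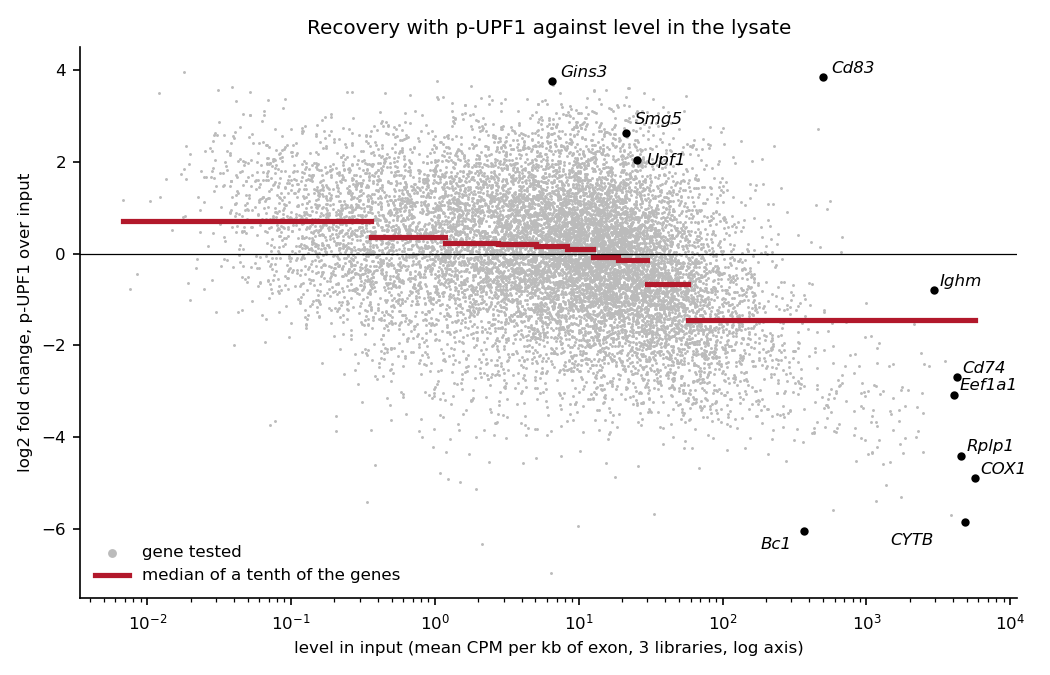
Log2 fold change of p-UPF1 over input against the mean level in input (CPM per kb of exon, log axis). Each grey point is a tested gene, each red line marks the median and range of 1284 genes, and the medians step down from 0.72 at the left to -1.46 at the right, with Cd83 far above the genes of like abundance.

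The order of the RNAs by level changed accordingly. Only 2 of the 15 highest RNAs of p-UPF1, per kilobase, were among the 15 highest of input, and 20 of the 100 highest were shared. The 2 were both immunoglobulin transcripts, Ighm and Igkc, the constant regions of the mu heavy chain and kappa light chain. After Cd83 the second in p-UPF1 was Grap, a GRB2-related adaptor protein, at 3026 CPM per kb (from rank 116 in input), and Scd2, a stearoyl-CoA desaturase, stood at rank 5 from rank 233. Nfkbie, an inhibitor of NF-κB, reached rank 15 from rank 632. Conversely COX1, first in input, was at rank 169 in p-UPF1. Of the other RNAs that led input per kilobase, Rplp1, a ribosomal stalk protein, had a log2 fold change of -4.41 ± 0.04, Cd74, the invariant chain of MHC class II, -2.70 ± 0.03, and Eef1a1, the elongation factor that delivers aminoacyl-tRNA, -3.08 ± 0.03. Grap, Scd2 and Nfkbie were picked after their ranks were seen.

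Longer mRNAs had higher fold changes on average, with wide overlap between short and long ones. For 11905 protein-coding genes with a RefSeq transcript, 1 transcript per gene was measured and the genes were cut into 5 equal groups by each feature. By 3′ UTR length the median log2 fold change was -1.01 in the shortest group (up to 325 bases), -0.34, 0.27, 0.50 and 0.43 in the longest (from 2345 bases). In the shortest group 49.9% of genes were lower and 7.85% higher, and in the longest 9.58% and 31.5%. Spearman's rho across genes, which share the same 6 libraries and are not independent, was 0.37. Whole-transcript length gave -1.34 in the shortest and 0.27 in the longest group (rho 0.36), and coding length -0.73 and 0.19 (rho 0.20). The most recovered lengths were not the longest, since the fourth group was above the fifth for the 3′ UTR and for the whole transcript. For IgG over input the medians by 3′ UTR length ran from -0.19 to 0.004.

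Abundant mRNAs tend to be short, and both measures were therefore crossed, each in 3 equal groups. Among the most abundant mRNAs the median went from -1.38 with the shortest 3′ UTRs (1664 genes) to -0.20 and 0.16 with the longest (940 genes). In the middle group of abundance (from 3.82 to 17.2 CPM per kb) it went from -0.47 to 0.39 and 0.40. The least abundant group holds genes that could pass the count filter through their p-UPF1 counts, and its medians of -0.005, 0.53 and 0.68 are a description. Crossed with coding length, mRNAs short in both (coding region up to 1035 bases, 3′ UTR up to 589 bases) had a median of -1.59 over 1664 genes, with 1071 lower and 119 higher. mRNAs with a short coding region and a long 3′ UTR had 0.63 over 1046 genes, with 174 lower and 428 higher, or 40.9% higher against 22.5% of all genes. mRNAs long in both had 0.35.

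**Figure D3:**
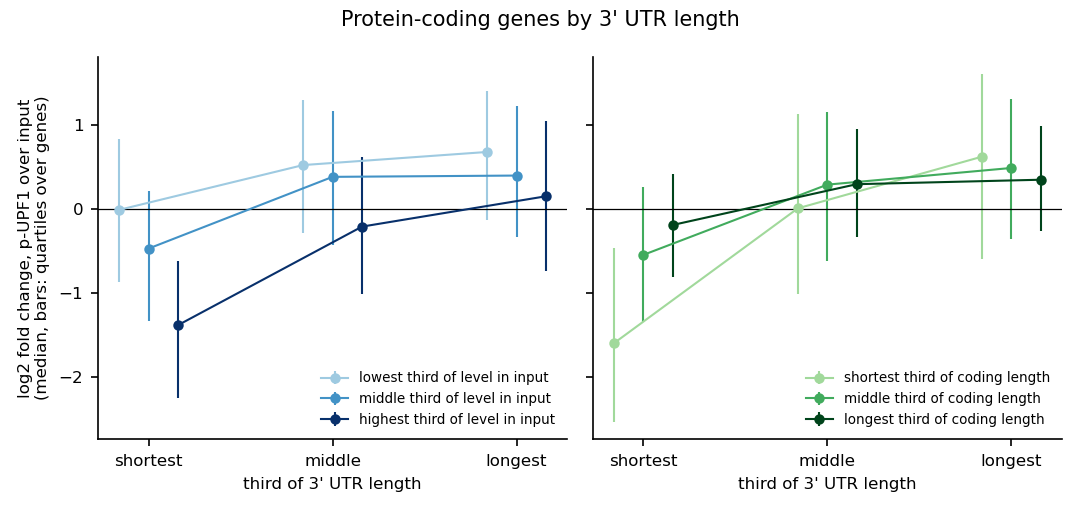
Log2 fold change of p-UPF1 over input for protein-coding genes in 3 equal groups of 3′ UTR length, split into 3 equal groups of level in input (left, blue) or of coding length (right, green), with points at the median over genes and bars from the lower to the upper quartile. The lowest points are short 3′ UTRs combined with high level (-1.38) or a short coding region (-1.59), and each line ends higher than it starts, with the line of the least abundant mRNAs given as a description.

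Base composition and the 5′ end were compared in the same way. The 3′ UTR GC content, a feature added after seeing the data, went with the fold change, from -0.59 in the group poorest in GC to 0.37 in the richest (rho 0.27). GC content of the coding region gave -0.23 and 0.21 (rho 0.13). The group with the most upstream start codons, also added after seeing the data, had a median of 0.30, against -0.28 and -0.14 in the 2 groups with none (rho 0.15). Genes with equal numbers of start codons were placed in neighbouring groups in an arbitrary order. 5′ UTR length gave -0.17 and 0.25 (rho 0.12) and exon number -0.34 and 0.19 (rho 0.14). The 284 mRNAs whose annotated 5′ end reads C followed by at least 4 pyrimidines, the start typical of mRNAs for the translation machinery, had a median of -0.10 against 0.003 for the others. Of the 284, 38 were lower by 2 or more on the log2 scale, against 75 of 78 tested ribosomal protein mRNAs. The annotated 5′ ends thus left many ribosomal protein mRNAs out of this class. The copies of ATTTA in the 3′ UTR, a core of AU-rich elements also added after seeing the data, gave -0.26 in the group with none and 0.24 and 0.07 in the 2 groups with the most (rho 0.13). mRNAs ending in the stop codon TAA (likewise added) had a median of -0.22, TAG 0.02 and TGA 0.10. These properties are linked to one another and to length and abundance, and their separate parts were not tested.

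The best known mark of an NMD substrate is an exon junction more than 50 nucleotides past the stop codon. Of 20919 annotated coding genes the measured transcript of 65 had 1, and 32 of the 65 passed the count filter. This feature was added after seeing the data. A gene scarce in input could pass that filter through its p-UPF1 counts alone. The 17 of the 32 that were higher and the 0 that were lower (22.5% and 24.5% of all tested genes) are therefore a description of the mRNAs that passed, and nothing is read from them. Among the 12 with at least 10 CPM in input, 4 were higher and 0 lower, with a median of 0.61, against 19.7% higher and 25.8% lower among the 8693 coding genes at that input level, whose median was -0.13. The 4 were H2-Q6, Primpol, Naa60 and Phlda3, of which Phlda3 was under the minimum on library size alone (0.976) and with upper-quartile scaling (0.956).

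The stop codons of 10 of the 12 mRNAs, from RefSeq on GRCm38 (mm10), show where translation ends before the junction (in Bsn and H2-M3 an exon junction falls inside the window, and none is shown). Each line holds the last 12 coding bases, the stop codon in capitals and the 15 bases after it, 5′ to 3′ on the gene's strand, and the lines are ordered from the highest to the lowest log2 fold change.
H2-Q6: tggtggattttgTGAtgaagagaaggagac
Primpol: ttacagaatagcTGActgtggacagaacat
Naa60: agccgtaccatgTAAtgccattggggcagc
Phlda3: acccttgtgtccTAAaccatgaggcgtatc
Thoc2l: gacaagcacagaTAAtgaagactcagccaa
Dexi: ggatatttggaaTAAtgtcgtgattactgt
Agbl5: ctcgcagagggaTGAgaggttcaagcccca
Rps6ka4: ttgtccccttccTAGctcccgccactgtga
Strn4: aaggtcttcgtaTGAtcccacctggcctcg
Txnrd2: ggttgctgaggcTAAgtcaccatccctgct
They lie at chr17:35428347-35428376 (+ strand, H2-Q6), chr8:46578909-46578938 (- strand, Primpol), chr16:3901925-3901954 (+ strand, Naa60), chr1:135766812-135766841 (+ strand, Phlda3), chr5:104522369-104522398 (+ strand, Thoc2l), chr16:10542388-10542417 (- strand, Dexi), chr5:30905665-30905694 (+ strand, Agbl5), chr19:6829924-6829953 (- strand, Rps6ka4), chr7:16839896-16839925 (+ strand, Strn4), chr16:18477766-18477795 (+ strand, Txnrd2).

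The distance from the stop codon to the last junction varied widely among these 12. Thoc2l, a relative of a THO complex gene, had the longest, 940 nucleotides, and a log2 fold change of 0.76 ± 0.08, under the minimum of 1. Primpol, a primase and polymerase (905 nucleotides), was at 11.4, 10.8 and 10.6 CPM in the input libraries and 32.6, 28.1 and 32.4 CPM in the p-UPF1 libraries, with 1.499 ± 0.13, and the groups did not overlap. Naa60, an N-terminal acetyltransferase (186 nucleotides), had 1.12 ± 0.06, Dexi (131 nucleotides) 0.74 ± 0.06 and Bsn (107 nucleotides), which encodes a presynaptic scaffold, 0.10 ± 0.09. The other 7 had a distance under 100 nucleotides. H2-Q6 (54 nucleotides) was at 78.8, 72.7 and 71.9 CPM in the input libraries and 403, 359.8 and 371 CPM in the p-UPF1 libraries, far apart, with 2.34 ± 0.07, although reads of this MHC class I gene can be shared with its near-identical neighbours. Phlda3 (68 nucleotides), a p53 target, had 1.02 ± 0.06, and Agbl5 (82 nucleotides), a deglutamylase of tubulin, 0.48 ± 0.07. Strn4 (62 nucleotides) was at 86.9, 86.1 and 88.4 CPM in the input libraries and 82.6, 83.3 and 88.7 CPM in the p-UPF1 libraries, which overlap, and had -0.04 ± 0.05. Rps6ka4 (67 nucleotides) had 0.17 ± 0.07, the MHC class I-like gene H2-M3 (69 nucleotides) 0.04 ± 0.06 and Txnrd2 (77 nucleotides), the mitochondrial thioredoxin reductase, -0.63 ± 0.09. Arc, an immediate early gene and a textbook NMD substrate (757 nucleotides), lay outside the 12. It was scarce, at 3.04, 3.58 and 2.85 CPM in the input libraries and 32.9, 33.8 and 34.6 CPM in the p-UPF1 libraries, and its log2 fold change of 3.42 ± 0.11 is given as a description. RefSeq transcripts stand for a gene here, and which isoform was precipitated cannot be read from gene counts.

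**Figure D4:**
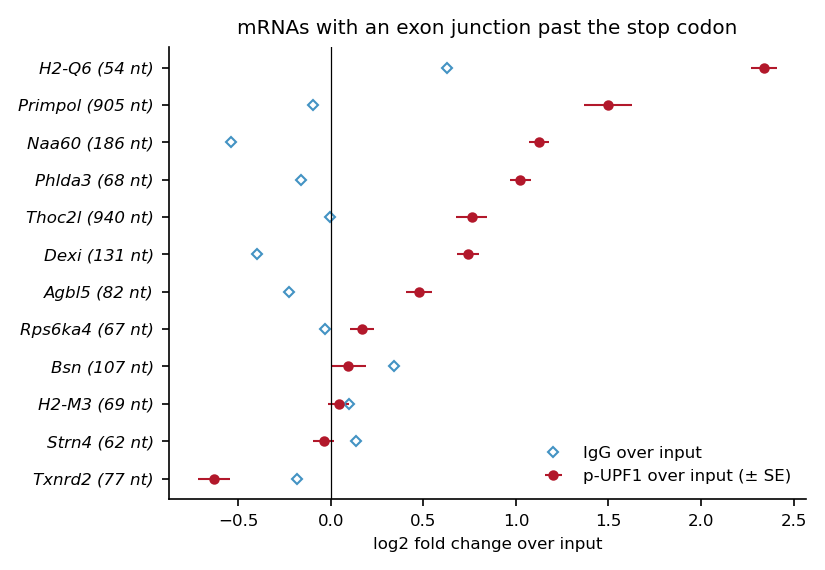
Log2 fold change over input of the 12 mRNAs with an exon junction more than 50 nucleotides past the stop codon and at least 10 CPM in input, with the distance in parentheses. Red points are p-UPF1 over input with bars of 1 SE (3 libraries per group), blue diamonds are IgG over input, and the red points run from -0.63 for Txnrd2 to 2.34 for H2-Q6, with 4 of the 12 at or above 1.

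Gene lists showed how the functional classes fell. The lists are described by their counts and medians, beside a median of -0.03 and shares of 22.5% higher and 24.5% lower over all genes tested. The highest and lowest members named are those with a mean of at least 10 CPM over the 6 libraries, and further members are examples. Ighg3, Dusp6 and Dnajc28, named as the highest of their lists, were under 10 CPM in input and reached that mean through p-UPF1. Conversely, several lowest members reached it through input, such as Zfp358, Arl3, Tob1 and Cenpv at means of 3.67, 3.79, 4.64 and 3.88 CPM in p-UPF1. Such places at either end are a description. Of the 245 genes named by the rule or as examples 59 overlap another annotated gene between start and end, introns included. Exon overlap was not examined, so their counts may be uncertain where strand was not used or the partner lies on the same strand. Of the genes described here, those past 2 on the log2 scale whose overlap is not pointed out elsewhere are Nsl1, Zfp593, Eif2ak2, Hars2, Adar, Pvt1, Smg6, Gadd45a, Scd2, Ddit3, Dcp1a, Zbtb46, Ppp1r15a, Rptor and Mis12 on the higher side and Ccna2, Cd74, Bcl2a1d, Rack1, Eif3m, B2m, ND6, Tpt1, Rps13 and ND4 on the lower side. Of 53 lists, 15 had a median above 0 and 17 a median under -1. For IgG over input 51 of the 53 medians lay between -1 and 1.

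Ribosomal protein and elongation factor mRNAs were lower throughout, and other lists of the translation machinery in part. All 78 tested ribosomal protein mRNAs of 79 were lower, from -1.63 ± 0.04 for Rpl22 to -4.58 ± 0.05 for Rps13, with a median of -3.36 (-0.54 for IgG over input). Their share of all counts was 7.11, 7.10 and 7.05% of the counts of the input libraries and 0.847, 0.770 and 0.755% of those of the p-UPF1 libraries. An exact permutation test of that share over the 6 libraries gave a two-sided P of 0.1, the smallest that 3 against 3 allows. Many ribosomal protein genes have processed pseudogenes that can take some of their reads. The median of -3.36 was below the -1.34 of all mRNAs in the shortest group by transcript length. That group runs from 320 to 1680 bases and was not matched to these mRNAs. The part of length or abundance in their values was not tested. All 9 genes of the elongation factor list were lower, with a median of -2.82, from Eif5a2 at -1.20 ± 0.08 to Tpt1 at -4.37 ± 0.07. Among 36 initiation factor genes 18 were lower and 3 higher. The lowest were Eif3f at -3.38 ± 0.04 and Eif3m at -3.28 ± 0.06, and the 3 higher were Eif4a2, a helicase of the cap-binding complex, at 1.45 ± 0.05, Eif5 at 1.06 ± 0.07 and Eif1a at 1.04 ± 0.04. IgG over input was 1.01 ± 0.05 for Eif4a2, against a median of -0.28 over the 36 genes. Eif4a2 overlaps other annotated genes on both strands. Eif5 was under the minimum without the second p-UPF1 library (0.995) or with upper-quartile scaling (0.990), and Eif1a on library size alone (0.994) or with upper-quartile scaling (0.974). Of 12 genes of translation termination and poly(A) binding 5 were lower and 1 higher. Poly(A)-binding protein, Pabpc1, was at -2.39 ± 0.05, and Paip2b, which inhibits it, at 2.62 ± 0.05. Of 37 aminoacyl-tRNA synthetases 14 were lower and 2 higher, the latter being mitochondrial Hars2 at 2.73 ± 0.06 and Wars at 1.44 ± 0.04. Rpl7l1, a paralogue of ribosomal protein L7 outside the ribosomal list, was at 154, 156 and 157 CPM in the input libraries and 796, 783 and 789.8 CPM in the p-UPF1 libraries, and its log2 fold change of 2.34 ± 0.04 had the opposite sign to the whole ribosomal list.

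Nuclear genes of oxidative phosphorylation were lower with 1 exception, and other lists of energy metabolism in part. Of 72 tested nuclear genes of oxidative phosphorylation 71 were lower, with a median of -3.10, and the exception, Ndufs1, the largest subunit of complex I, had -0.49 ± 0.05. Atp5e, the epsilon subunit of ATP synthase, was lowest at -4.51 ± 0.06. The 12 tested mitochondrially encoded mRNAs (of 13) were all lower, with a median of -5.35, and the 7 of them above 10 CPM ran from -4.02 ± 0.08 for ND6 to -5.87 ± 0.07 for CYTB. All genes of the mitochondrial genome together took 2.80, 2.80 and 2.73% of the counts of the input libraries and 0.0855, 0.0819 and 0.0765% of those of the p-UPF1 libraries (two-sided exact permutation P = 0.1, the smallest possible). Mitochondrial ribosomal proteins, which are encoded in the nucleus, had 54 of 74 lower and 3 higher, with a median of -1.85. The 3 were Mrpl49 at 2.67 ± 0.06, Mrpl50 at 1.27 ± 0.05 and Mrps27 at 1.16 ± 0.06. Mrpl49 overlaps another annotated gene. Of 17 TCA cycle genes 13 were lower and 1 higher (Dlst, 1.22 ± 0.04), and of 20 glycolysis genes 11 were lower and 1 higher (the glucose transporter Slc2a3, 1.33 ± 0.05). Cholesterol synthesis was divided, with 7 of 22 genes higher and 7 lower, from the feedback regulator Insig1 at 2.36 ± 0.04 to the farnesyl diphosphate synthase Fdps at -2.18 ± 0.05. The proteasome had 32 of 37 tested subunit genes lower, with Psmb1 lowest at -3.33 ± 0.05 and Psmd7 the highest at 0.75 ± 0.04. The Slc25 mitochondrial carriers had 11 higher and 9 lower of 39 tested, with the adenine nucleotide translocase Slc25a5 lowest at -2.96 ± 0.05.

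NMD factors formed the list with the highest median, 1.59 (-0.01 for IgG over input). Of the 10, 6 were higher and 2 lower. Upf1 itself (chr8:70331493-70353423) was at 122, 121 and 123.3 CPM in the input libraries and 505, 500.5 and 505 CPM in the p-UPF1 libraries, with a log2 fold change of 2.04 ± 0.04 (adjusted P = 3.1e-17, edgeR), although it overlaps a gene on the opposite strand. Smg5 (chr3:88336259-88362338) was at 125, 121 and 128 CPM in the input libraries and 765, 776 and 778 CPM in the p-UPF1 libraries, with 2.63 ± 0.04. For both the libraries of a group lay close together and far from the other group. Upf2, the bridge between UPF1 and the exon junction complex, had 2.37 ± 0.04, the endonuclease gene Smg6 2.35 ± 0.07 and the kinase gene Smg1 1.146 ± 0.08. Smg9 at 0.98 ± 0.06 and Upf3b at 0.74 ± 0.05 stayed under the fold minimum, although Smg9 reached 1.001 without the first and 1.003 without the third p-UPF1 library and 1.02 with DESeq2 size factors. Smg8, a regulator of SMG1, and Upf3a, the paralogue of Upf3b, were lower at -1.995 ± 0.07 and -1.46 ± 0.07. Several NMD factor mRNAs are known NMD substrates themselves.

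Other decay genes were mixed. The exon junction complex had 6 of 10 lower and 0 higher, including its core genes Eif4a3 at -2.10 ± 0.05, Rbm8a at -1.80 ± 0.06 and Magoh at -3.51 ± 0.07, whereas Casc3, the remaining core gene, was at 0.98 ± 0.04, and at 1.002 without the first input library and 1.03 with DESeq2 size factors. Of 15 decapping genes 4 were higher and 1 lower, with Dcp1a at 2.29 ± 0.05 and Pnrc1 at -1.98 ± 0.06. Pnrc2, which links decapping to p-UPF1, was at 1.65 ± 0.07. The CCR4-NOT and deadenylase list had 2 of 18 higher (Cnot9, 1.497 ± 0.06, and Pan3, 1.28 ± 0.05) and 3 lower (Tob1, -2.27 ± 0.10, Cnot4, -1.10 ± 0.06, and Cnot10, -1.03 ± 0.05), of which Cnot10 did not reach -1 without the first p-UPF1 library (-0.998) or with DESeq2 size factors (-0.988), and Cnot4 with no low-count filter (-0.964). The RNA exosome had 3 higher and 6 lower of 18, from Exosc7 at -1.92 ± 0.06 to Exosc2 at 1.71 ± 0.04. Among regulators that bind AU-rich elements or stem-loops 1 of 17 was higher (Zc3h7a, 1.21 ± 0.05) and 6 were lower, with Zfp36l1 lowest at -2.46 ± 0.05.

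Stress response lists differed in which side held more genes. Of 26 genes of the integrated stress response and unfolded protein response 12 were higher and 4 lower, with a median of 0.59. Atf3 (chr1:191170296-191183333), a transcription factor induced by ATF4, was at 20.8, 20.8 and 20.1 CPM in the input libraries and 175, 181 and 163 CPM in the p-UPF1 libraries, with a log2 fold change of 3.07 ± 0.07. Ddit3, which encodes CHOP, was at 135, 139 and 129 CPM in the input libraries and 734, 766 and 524 CPM in the p-UPF1 libraries, with 2.33 ± 0.11. The third p-UPF1 library was lowest for Ddit3 but stayed above every input library. Ppp1r15a, the regulatory subunit that reverses eIF2α phosphorylation, had 2.17 ± 0.08, Trib3 2.03 ± 0.05, the sensor gene Atf6 1.97 ± 0.05 and Ern1, which encodes IRE1α, 1.45 ± 0.09. Atf4 itself was at 0.59 ± 0.06. At the other end were asparagine synthetase, Asns, at -2.17 ± 0.05, and Xbp1 at -1.13 ± 0.05 (-0.995 with no low-count filter). Chaperones and disulfide isomerases of the endoplasmic reticulum, many of them induced by these regulators, had 12 of 23 lower and 1 higher, with Hspa5, which encodes BiP, at -1.27 ± 0.04, Calr at -1.43 ± 0.04 and Dnajb9 at -2.35 ± 0.07, only Txndc5 higher at 1.19 ± 0.04, and a median of -1.20. The DnaJ family as a whole had 6 higher and 14 lower of 38 and a median of -0.16, between Dnajc28 at 3.76 ± 0.13 and Dnajb9. Among p53 response genes 8 of 24 were higher and 4 lower, with a median of -0.11. All 3 Gadd45 genes, which encode small stress sensors, were among the 8, with Gadd45g at 3.44 ± 0.06, Gadd45b at 3.11 ± 0.06 and Gadd45a at 2.35 ± 0.15. Gadd45b (chr10:80930091-80932204) was at 22.7, 22.4 and 20.7 CPM in the input libraries and 200.2, 185 and 184 CPM in the p-UPF1 libraries. Trp53 was lowest of the list at -2.18 ± 0.04, and Cdkn1a at -1.25 ± 0.04. Selenoproteins, which read a UGA codon as selenocysteine, had 10 of 18 tested lower and 1 higher (Gpx3, 1.20 ± 0.37, which lost its call without the third input library, at 1.01), with Gpx4 lowest at -2.96 ± 0.08.

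Surface and signalling genes of B cell activation fell on both sides, with more of them higher than lower. Of 25 tested surface molecules of B cell activation 11 were higher and 5 lower, with a median of 0.75. After Cd83 came Icosl at 2.73 ± 0.08, Slamf1 at 2.54 ± 0.08, the interleukin-4 receptor gene Il4ra at 2.49 ± 0.05 and the costimulatory ligand Cd80 at 2.17 ± 0.08. Cd40 was at 1.64 ± 0.05, Cd86 at 1.12 ± 0.09 and Cd44 at 0.05 ± 0.04. Il4ra, the receptor of a cytokine that was in the culture, was at 384, 380.3 and 381 CPM in the input libraries and 2137, 2142 and 2160.2 CPM in the p-UPF1 libraries. Tnfsf9 and Cd70, both ligands of the TNF family, were at -1.59 ± 0.09 and -2.86 ± 0.15. The list as a whole took 0.667, 0.653 and 0.661% of the counts of the input libraries and 2.52, 2.54 and 2.43% of those of the p-UPF1 libraries, most of it Cd83 in p-UPF1. Of 17 genes of the TRAF, TAB and TAK1 group 7 were higher and 0 lower, with Tab1 first, Traf2 at 3.13 ± 0.07, Map3k14, the kinase of the noncanonical NF-κB pathway, at 2.67 ± 0.05, and Tank lowest at -0.80 ± 0.05. NF-κB inhibitors differed from one another. Nfkbie was at 245, 248 and 240.1 CPM in the input libraries and 1595, 1650.4 and 1625 CPM in the p-UPF1 libraries, with 2.73 ± 0.04, whereas Nfkbia was at 307, 310.3 and 307 CPM in the input libraries and 96.4, 84.8 and 87.1 CPM in the p-UPF1 libraries, with -1.78 ± 0.05, and Nfkbib had -1.95 ± 0.05. The subunit genes Nfkb1, Rel, Relb and Rela had -0.70 ± 0.04, -1.32 ± 0.09, -0.81 ± 0.05 and 0.18 ± 0.04. Tnfaip3, which encodes the deubiquitinase A20, had 2.30 ± 0.04. Of the 20 genes of that list 6 were higher and 4 lower.

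The PI3K-AKT-FOXO list had 9 of 23 higher and 1 lower (Foxo1, -1.01 ± 0.07), with a median of 0.75. Foxo1 lay at the limit of -1 and did not reach it without the third input, the first p-UPF1 or the second p-UPF1 library, at -0.988, -0.969 and -0.999, nor with DESeq2 size factors, at -0.965. Below Pik3ip1 it included the mTORC1 scaffold Rptor at 2.03 ± 0.05, Foxo3 at 1.85 ± 0.05, the p85α gene Pik3r1 at 1.82 ± 0.06 and Tsc1 at 1.80 ± 0.04. In the B cell receptor list 3 of 19 were higher and 7 lower. The signal chains Cd79a and Cd79b were at -3.04 ± 0.05 and -1.08 ± 0.04 (-0.951 for Cd79b with no low-count filter), and the kinase gene Syk and the adaptor gene Pik3ap1 at 2.71 ± 0.07 and 2.02 ± 0.05. The BCL2 family held 7 higher and 5 lower of 17, from the BH3-only gene Bid at 2.86 ± 0.05 to Bcl2a1d at -2.77 ± 0.08. Bcl2a1 genes are near-identical copies, so their counts are uncertain. MAP kinase phosphatase genes had 5 higher and 3 lower of 15, and Dusp6 was first at 1.87 ± 0.09. Amino acid transporters ran from Slc1a4 at 2.87 ± 0.05 to Slc3a2, the heavy chain shared by several exchangers, at -1.97 ± 0.04, while Slc7a5, the light chain that pairs with it in LAT1, was at 1.52 ± 0.04. Of those 18 tested 5 were higher and 2 lower.

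Transcription factor genes fell on both sides. In the immediate early list 5 of 23 were higher and 6 lower, with Ier2 at 2.84 ± 0.05, Ier5 at 2.52 ± 0.04 and Jun at 1.90 ± 0.05 against Junb at -1.60 ± 0.05, Jund at -2.07 ± 0.04 and Myc at -1.75 ± 0.04. B cell and plasma cell factors had 5 higher and 6 lower of 24. Spib was at 1.93 ± 0.04, Pax5 at 1.65 ± 0.05 and Irf4 at 1.57 ± 0.06, and Pou2af1, Bcl6 and Prdm1 were at -1.24 ± 0.04, -1.23 ± 0.06 and -0.81 ± 0.10. Of 316 tested Zfp zinc finger genes 90 were higher and 38 lower, a share of 28.5% higher against 22.5% of all genes, with a median of 0.29. Zfp593 (3.26 ± 0.11) and Zfp358 (-2.80 ± 0.11) marked the ends of that list. Histone-modifying enzymes had 10 higher and 7 lower of 72. Of 32 tested interferon response genes 9 were higher and 8 lower, with a median of -0.42. Among the 9 were Stat2, described above, Irf1 at 3.07 ± 0.05, the RNA-activated kinase gene Eif2ak2 at 2.996 ± 0.06 and the RNA editing enzyme gene Adar at 2.61 ± 0.05, and among the 8 were Isg15 at -3.10 ± 0.26 and Bst2 at -2.59 ± 0.09.

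Antigen presentation genes were more often lower than higher. Of 12 tested class II genes 2 were higher and 8 lower, and of 15 class I genes 3 were higher and 6 lower. Ciita (chr16:10480014-10531064), the transcriptional coactivator that switches on MHC class II genes, was at 335, 349.5 and 355 CPM in the input libraries and 2314, 2371 and 2436 CPM in the p-UPF1 libraries, with a log2 fold change of 2.78 ± 0.05, although it overlaps another annotated gene. The class II chains H2-Aa, H2-Ab1 and H2-Eb1 were at -2.91 ± 0.04, -2.45 ± 0.04 and -1.83 ± 0.04, and H2-Eb2, their little-used relative, at 2.39 ± 0.05. Nlrc5, the class I counterpart of Ciita, was at 1.41 ± 0.06. B2m, the class I light chain, was at 1306, 1329 and 1269 CPM in the input libraries and 87.5, 90.02 and 93.96 CPM in the p-UPF1 libraries, with -3.85 ± 0.05, and H2-K1 had -1.69 ± 0.04. The class I genes H2-Q6 and H2-Q4 were higher, at 2.34 ± 0.07 and 1.62 ± 0.06, although their reads can be shared with near-identical neighbours.

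Immunoglobulin variable segments were mostly lower, and constant regions fell on both sides. Of 169 tested variable segments in the list 154 were lower and 3 higher, with a median of -2.38, and -1.11 for IgG over input, the lowest IgG median of the 53 lists. Their summed share was 0.132, 0.136 and 0.135% of the counts of the input libraries and 0.0236, 0.0255 and 0.0243% of those of the p-UPF1 libraries. The segments are short and alike, so single segments are uncertain. Of 13 tested genes of the constant regions and the J chain 6 were lower and 2 higher, with a median of -0.80. Igkc was at 1145, 1128 and 1114 CPM in the input libraries and 218, 222 and 225 CPM in the p-UPF1 libraries, with -2.35 ± 0.04, and the lambda constant genes Iglc1, Iglc2 and Iglc3 at -1.47 ± 0.07, -2.78 ± 0.07 and -2.91 ± 0.08. Ighm was at 4370.1, 4376 and 4382 CPM in the input libraries and 2437, 2616 and 2472 CPM in the p-UPF1 libraries, with -0.80 ± 0.04. The other 2 lower genes, Jchain and the switched heavy chain Ighg2c, were scarce, at -1.81 ± 0.23 and -1.19 ± 0.41, and Ighg2c lost its call without the third input library (-0.897) or the second p-UPF1 library (-0.888). The 2 higher were the switched heavy chains Ighg1 at 1.14 ± 0.03 and Ighg3 at 2.53 ± 0.08, and Ighe, the isotype that IL-4 also induces, was at 0.05 ± 0.09. Whether reads of the membrane or the secreted form were recovered cannot be told apart in gene counts.

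Cell cycle lists had 28.6% to 39.5% of their genes lower and 11.6% to 14.3% higher, against 24.5% and 22.5% of all genes tested. DNA replication genes had 6 higher and 17 lower of 43, with a median of -0.80. Gins3 was followed by Rpa2 at 1.96 ± 0.04, Rfc1 at 1.77 ± 0.04 and Cdc6 at 1.68 ± 0.05, and Rpa3 was lowest at -3.24 ± 0.09, with Pcna, the sliding clamp, at -2.50 ± 0.05. Kinetochore and spindle checkpoint genes had 5 higher and 13 lower of 43, with a median of -0.54, and Cenpv was lowest at -2.34 ± 0.13. Nsl1, Mis12 and Dsn1, which encode subunits of the MIS12 complex, were at 3.503 ± 0.05, 2.02 ± 0.04 and 1.4996 ± 0.05. Cyclins had 3 higher and 6 lower of 21 and a median of -0.26, with Ccnh lowest at -2.49 ± 0.07, Ccnl1 at 2.14 ± 0.05 and the mitotic cyclin genes Ccnb1, Ccna2 and Ccnb2 at -2.12 ± 0.09, -2.07 ± 0.06 and -1.80 ± 0.06. Core splicing genes were mostly lower. Of 36 tested core spliceosome and Lsm genes 24 were lower and 0 higher, from Snrpg at -3.69 ± 0.06 to Prpf3 at 0.69 ± 0.05. The hnRNP genes had 19 lower and 1 higher of 30, the latter Ptbp2 at 1.75 ± 0.06, a known NMD substrate through exon skipping. SR splicing factors, many of which carry poison exons, had 1 higher and 2 lower of 15. The 1 was the scarce Srsf12 at 1.06 ± 0.36, which lost its call without the first input library (log2 fold change 0.991) and was under the minimum without the second or the third p-UPF1 library (0.987 and 0.984). The list had a median of -0.06. Of 71 tested Rab, Arf and Arl GTPase genes 21 were higher and 17 lower, between Arf2 at 3.26 ± 0.06 and Arl3 at -2.90 ± 0.10.

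**Figure D5:**
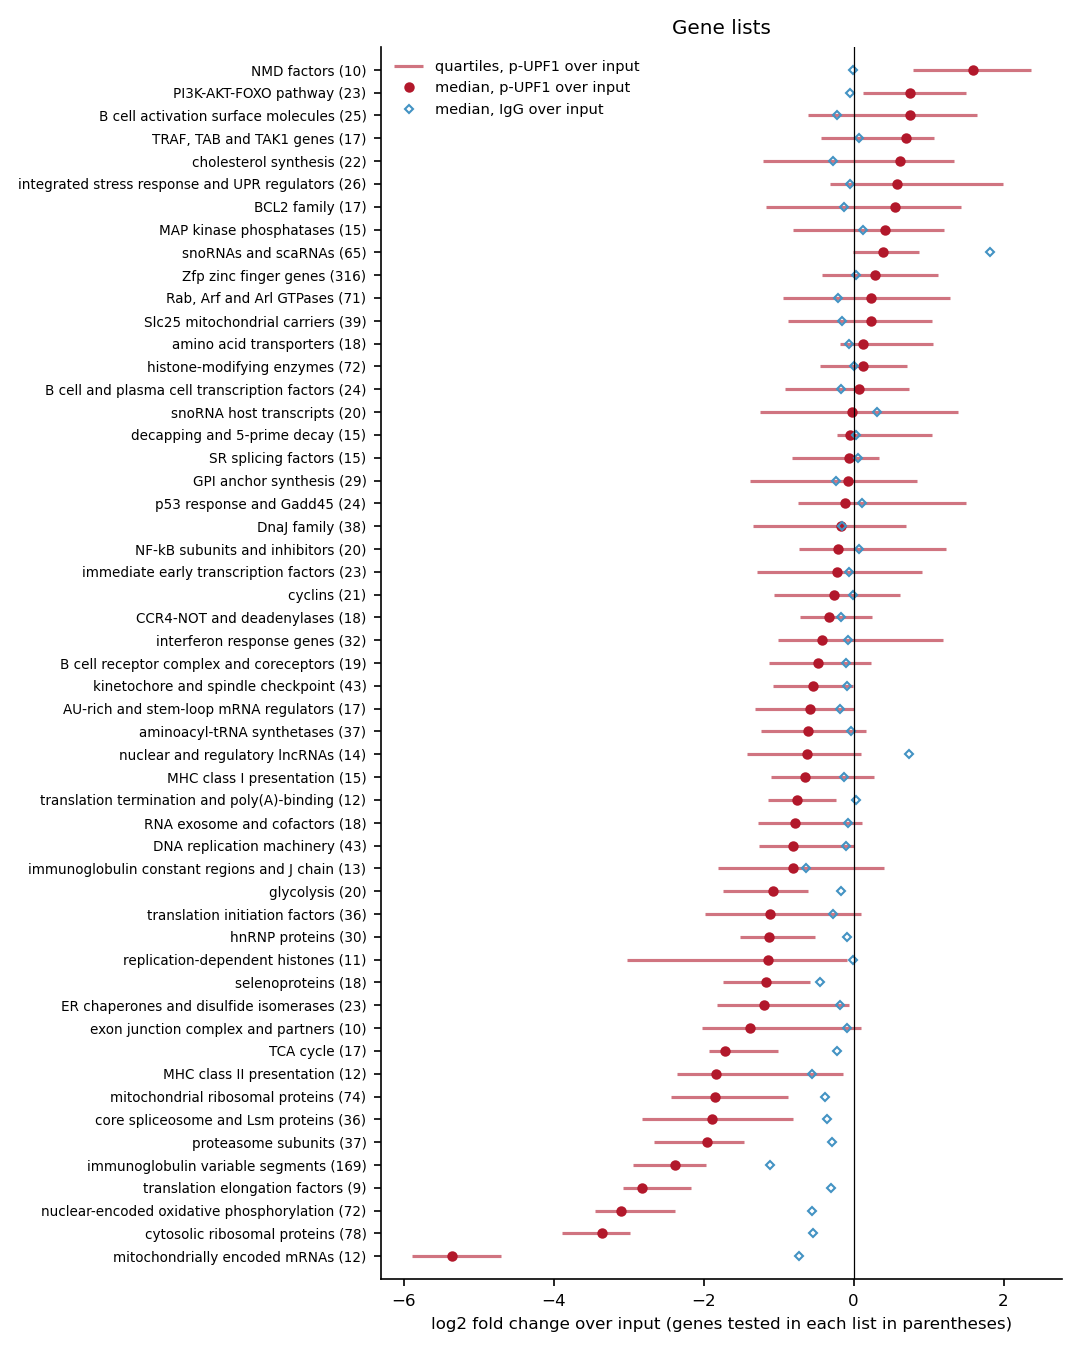
Gene lists ordered by the median log2 fold change of p-UPF1 over input (red points, with lines from the lower to the upper quartile over the tested genes, whose number is in parentheses) and the median of IgG over input (blue diamonds, same input libraries). The red medians run from -5.35 for mitochondrially encoded mRNAs to 1.59 for NMD factors, while most blue medians lie near 0.

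Noncoding RNAs formed a varied class. By annotated biotype the 11918 protein-coding genes had a median of 0.002. The 442 lncRNAs had 0.23, with 137 higher and 85 lower (30.995% and 19.2% against 22.5% and 24.5%), and took 0.426, 0.413 and 0.408% of the counts of the input libraries and 0.642, 0.631 and 0.630% of those of the p-UPF1 libraries. A scarce RNA could pass the count filter through its p-UPF1 counts, so the counts of lncRNAs are a description. The 105 pseudogenes had -2.34, with 78 lower and 9 higher, and the 104 transcribed pseudogenes -0.37, with 39 lower and 32 higher, and reads can be shared between a pseudogene and its parent gene. Among lncRNAs with a 6-library mean of 10 CPM or more, the 3 highest were A530072M11Rik at 3.01 ± 0.12, 4921525O09Rik at 2.66 ± 0.09 and D030028A08Rik at 2.64 ± 0.10, of which the last overlaps a gene on the opposite strand. The first 2, at means of 3.24 and 7.36 CPM in input, reached that mean only through p-UPF1, so their rank is a description. The 3 lowest of them were Bc1, AW112010 at -2.98 ± 0.13 and Norad at -1.85 ± 0.15. Bc1 and AW112010, at means of 0.851 and 3.01 CPM in p-UPF1, reached that mean only through input, so their rank is a description too. Norad, an lncRNA that binds Pumilio proteins, was at 83.4, 86.9 and 84.6 CPM in the input libraries and 21.5, 23.6 and 25.5 CPM in the p-UPF1 libraries, below input with p-UPF1, and at 1.80 ± 0.13 for IgG over input. Pvt1, the neighbour of Myc, had 2.57 ± 0.06 and Tug1 1.96 ± 0.05, whereas Malat1 and Neat1, which stay in the nucleus, had -0.32 ± 0.08 and -1.45 ± 0.08. Of 14 tested nuclear and regulatory lncRNAs 3 were higher and 6 lower.

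Host transcripts of small nucleolar RNAs carry short reading frames and are known to turn over through NMD. Gas5 (chr1:161034601-161038539) was at 438, 423 and 400.4 CPM in the input libraries and 556, 527 and 546 CPM in the p-UPF1 libraries, a log2 fold change of 0.37 ± 0.07, under the minimum of 1. The gene overlaps other annotated genes on both strands, introns included. IgG over input was 1.32 ± 0.07 for Gas5. Of 20 tested host genes 6 were higher and 6 lower. The higher ones were noncoding hosts, Snhg17 at 2.06 ± 0.07, Epb41l4aos at 1.96 ± 0.09, Snhg16 at 1.80 ± 0.06, Snhg5 at 1.54 ± 0.08, Snhg1 at 1.44 ± 0.08 and Snhg15 at 1.38 ± 0.05. Of these higher hosts, Snhg17 had 0.746 ± 0.07 and Snhg1 had 1.095 for IgG over input. The median for IgG over input across the 20 host genes was 0.315. How far the p-UPF1 values of the higher hosts exceed recovery with IgG was not tested. The lower ones included the coding hosts Rack1 at -3.06 ± 0.04 and Cct6a at -1.83 ± 0.05. The 65 tested snoRNAs themselves, present at low counts, had 13 higher and 1 lower, with a median of 0.39, and 1.81 for IgG over input.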

How the data were processed

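RNA immunoprecipitation with antibody to phospho-UPF1 or normal rabbit IgG, and an input aliquot of lysate, was sequenced from activated mouse splenic B cells (3 libraries of each). Per the labels, the authors trimmed reads with cutadapt, aligned them with HISAT2 to mm10 and deposited raw featureCounts counts per gene. Versions, and whether strand was used in counting these libraries, are not given in the sources used here. The library kit keeps strand and the RNA was polyadenylated. No molecular identifiers are described, so counts are reads, not molecules.

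Library totals were 17372510 to 24945286 counts. Columns were assigned to groups by their names, and their letters were not used to pair libraries. Identifiers were named from RefSeq (25275 of 27179) and GENCODE (18), and 1886 matched neither. Genes passing filterByExpr (minimum count 10, minimum total count 15) were fitted with edgeR 4.0.16 in R 4.3.3 (TMM, quasi-likelihood F test, 3 groups, 9 libraries, 6 residual degrees of freedom, prior count 0.125). P values were adjusted by Benjamini-Hochberg over 13129 genes. SE was the absolute log2 fold change divided by the square root of F, and CPM were TMM-normalised. The fit was tested on simulated data. DESeq2 1.42.0 and limma-voom (limma 3.58.1) were alternatives. Transcript features came from 1 RefSeq transcript per gene (GRCm38.p6).

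Genes were named by rule: 8 fixed genes, the 10 highest and 10 lowest among genes past a log2 fold change of 2, at a mean of at least 10 CPM and with no overlap of the groups, the 5 most abundant per kilobase in input, and, among genes averaging 10 CPM or more, the 3 highest and 3 lowest lncRNAs and the highest and lowest member of each list. Further list members are examples. Some genes that the rule names are not reported here. The comparison, genes and lists were chosen with earlier results of these data known.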

Additional observations from a re-analysis of the deposited data

How the results depend on the processing

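Over the alternatives tried, the number of genes higher at a log2 fold change of 1 was 2353 to 3501 (main 2955) and lower 2730 to 3401 (main 3211). At 2 it was 543 to 1163 higher (main 828) and 879 to 1355 lower (main 1270), with 543 from glmTreat at the fold minimum. These alternatives were other normalizations, low-count filters, prior counts, tools, thresholds, the 6 libraries alone, and leaving out each library in turn. The median of the most abundant group (main -1.46) was -1.41 with DESeq2 size factors, -1.53 with scaling to the upper quartile, -1.51 on library size alone, -1.44 with TMM on an input reference, -1.47, -1.45 and -1.47 with abundance from input library A, B or C, and -0.65 without division by length. That of the least abundant group (main 0.72) was 0.65 with upper-quartile factors, 0.77 at 1 CPM in 3 libraries and 0.58 without division by length. Scaling moved the median of all genes from -0.10 with upper-quartile factors to 0.01 with DESeq2 size factors. Over 245 named genes and 16 alternatives, 3904 of 3919 values gave the same answer at an adjusted P of 0.05, 5 newly passed it (Cd44, H2-M3, Ighe and Selenoi) and 10 lost it, and 0 values of genes that passed it changed sign. The 10 were Rps6ka4, whose 6 values ran from 0.10 to 0.17, Ighg2c, Srsf12 and Gpx3. With the fold minimum of 1 included, 3876 of the 3919 values gave the same call, 31 lost it in 12 genes and 12 gained it in 2 (Smg9 and Casc3). Foxo1 lost its call under 9 alternatives, Srsf12 under 5, Cnot10 under 4, and Eif1a, Eif5, Ighg2c and Phlda3 under 2 each, with Phlda3 at 0.96 and 0.98 under scaling to the upper quartile and on library size alone. Xbp1, Cd79b and Cnot4 were under the minimum with no low-count filter, at -0.99, -0.95 and -0.96. Of 848 list medians 13 changed sign, in 6 lists whose main medians were at most 0.23 in size. The causes were not tested. Genes with few counts are least precise, and 1299 tested genes were under 1 CPM in input. No paired analysis was possible because the count columns carry letters, not the replicate numbers of the labels.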
